A study of Mus musculus with 6 samples.

Results

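The actin isoforms and the smooth muscle actin-binding proteins were read in C2C12, a line of mouse myoblasts that stop dividing and fuse into myotubes once serum is lowered. The members were 9 genes taken by symbol: the skeletal actin Acta1, the cardiac actin Actc1, the vascular smooth muscle actin Acta2, the enteric smooth muscle actin Actg2, the cytoplasmic actins Actb and Actg1, and the filament-binding proteins Tagln (transgelin, also SM22), Cnn1 (calponin 1) and Cald1 (caldesmon). Every probe set that the platform annotation pairs with exactly 1 of these genes was used. That gave 19 of 45101 probe sets, and 9 of 18194 genes with such a probe set. All 9 genes passed the filter on low values, a highest value of at least 7.95 on any array (the median of all deposited values), as did 13242 genes in all.

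The series holds 6 single-colour Affymetrix arrays, 1 for each group. Parental C2C12 cells were taken in growth medium with 10% fetal bovine serum, at day 0 just after confluent cultures were switched to differentiation medium with 2% horse serum, and at days 2 and 4 in that medium. A further pair of arrays came from day 0 cultures of stable transfectants carrying shRp58, a hairpin RNA directed at Rp58, or a control vector. Both lines had been transfected with Lipofectamine and selected for 2 weeks in G418 at 500 µg/ml. The labels name the control once as a LacZ vector and once as a control hairpin, and do not say whether a line was a pool or a single clone, so the effect of the hairpin and a difference between clones cannot be told apart. Rp58, the product of Zbtb18, is a zinc-finger repressor that myoblasts switch on as they differentiate. All values are log2 intensities, and a value named as a difference is a difference of 2 log2 values. With 1 array for each group there was no replicate check, no SD and no p-value.

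Actins polymerise into the thin filaments of the sarcomere and into the stress fibres and cortex of every cell. Skeletal muscle builds its sarcomeres from the skeletal and cardiac isoforms, while the smooth muscle isoforms, transgelin, calponin and caldesmon mark smooth muscle and, at lower levels, many cultured mesenchymal cells. Serum response factor (SRF) binds the CArG box of many actin and smooth muscle promoters, and its cofactors of the MRTF family are held inactive by free actin monomer, so that actin polymerisation feeds back on actin transcription. Caldesmon and calponin bind actin filaments and restrain myosin, and transgelin, a calponin relative, bundles filaments.

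Promoter sequences from RefSeq (build GRCm38.p6) were matched for 6 of the 9 genes. The windows of 250 bases before the annotated start are shown for 4 actins because 3 of them, with unlike time courses, hold a CArG box and the other, Acta2, holds none. Capitals mark a CArG box, which is CC, then 6 letters that are each A or T, then GG. Each sequence reads 5′ to 3′ on the strand of the gene, which is the minus strand in all 4 cases.
Acta1, chr8:123894776-123895025: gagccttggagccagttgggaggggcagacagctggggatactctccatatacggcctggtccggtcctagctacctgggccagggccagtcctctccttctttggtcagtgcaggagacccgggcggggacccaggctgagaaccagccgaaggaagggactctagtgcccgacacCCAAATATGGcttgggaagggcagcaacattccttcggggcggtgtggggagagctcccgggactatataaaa
Actc1, chr2:114052876-114053125: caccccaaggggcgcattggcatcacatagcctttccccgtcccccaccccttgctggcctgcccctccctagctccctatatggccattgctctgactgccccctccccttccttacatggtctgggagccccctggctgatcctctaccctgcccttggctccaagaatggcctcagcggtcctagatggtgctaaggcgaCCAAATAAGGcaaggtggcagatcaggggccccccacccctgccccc
Acta2, chr19:34255374-34255623: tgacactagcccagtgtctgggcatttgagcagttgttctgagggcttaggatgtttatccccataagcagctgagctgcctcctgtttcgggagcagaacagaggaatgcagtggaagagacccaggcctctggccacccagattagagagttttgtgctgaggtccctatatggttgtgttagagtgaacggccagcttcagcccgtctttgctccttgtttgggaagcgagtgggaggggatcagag
Actg1, chr11:120348496-120348745: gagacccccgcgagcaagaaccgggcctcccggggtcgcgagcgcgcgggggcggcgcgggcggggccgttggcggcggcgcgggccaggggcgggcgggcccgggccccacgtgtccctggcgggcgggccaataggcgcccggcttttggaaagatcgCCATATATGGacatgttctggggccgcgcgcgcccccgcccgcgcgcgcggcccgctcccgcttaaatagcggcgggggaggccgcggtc

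The Acta1 window held the box CCAAATATGG, 73 bases before the start, and the Actc1 window held CCAAATAAGG, 47 bases before it. The window of Actg1, a cytoplasmic actin, held CCATATATGG, 90 bases before the start. A CArG box was present in 1.47% of the 32851 windows of this length in the table, both strands searched. Acta2 had no full box here but had CCCTATATGG and CCTTGTTTGG, each 1 letter off, and 18.6% of all windows held a box with at most 1 letter off. No full box was found in the windows of Cnn1 or Cald1. The general E-box CANNTG, the class of site that MyoD and myogenin bind, was present in 66.2% of all windows, with 2 copies in Acta1, 3 in Acta2, 1 in Actg1 and none in Actc1. CATCTG, 1 form of the E-box and the core of the sequence that Rp58 is known to bind, was in 14.4% of all windows and, among the matched members, in those of Cald1 alone. These are letter matches in short windows, with no binding data behind them.

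The arrays fell into 2 sets with different scales. The medians over all probe sets were 8.26 to 8.27 on the 4 time-course arrays and 7.15 on both stable-line arrays, so differences were taken only within a set. The 7.95 mark was set over all 6 arrays and is stricter on the stable-line arrays, where it lies above the median, than on the time-course arrays, where it lies below it. The highest value on any array was 15.09, and several actin probe sets lay close to it. The labelled cell type was borne out by its markers, since all 6 myoblast and myocyte markers, among them Myod1 and Des, were at or above 7.95 on every array. Myh11, the smooth muscle myosin heavy chain, lay at 6.99 to 7.20 on the time-course arrays, at 5.51 in shRp58 cells and at 5.42 in control cells, below 7.95 throughout. Of the 6 vascular smooth muscle and pericyte markers, to which Myh11 belongs, 4, 3, 3 and 3 were at or above 7.95 in growth medium and at days 0, 2 and 4, and 3 in shRp58 cells and 3 in control cells. Pdgfrb, Notch3 and Cspg4 were above it on every array, and Rgs5 was below it on every array. Fibroblast markers were at or above 7.95 for 4, 4, 5 and 5 of 6 genes in growth medium and at days 0, 2 and 4, and for 3 of 6 in shRp58 cells and 3 of 6 in control cells. Over the 6 genes their values ran from 6.94 to 13.33 in growth medium, 6.85 to 13.83 at day 0, 6.75 to 13.45 at day 2 and 6.81 to 13.52 at day 4. In these bulk cultures, fewer cells of a type and less RNA per cell cannot be told apart.

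The gap between the paired 3′ and 5′ control probe sets, a sign of RNA quality, was 0.16, 0.18, 0.24 and 0.22 for Actb in growth medium and at days 0, 2 and 4. In the stable lines it was 0.13 in shRp58 cells and 0.12 in control cells. The corresponding gaps for Gapdh were 0.21, 0.06, 0.12 and -0.01 over the time course, then 0.01 in shRp58 cells and -0.01 in control cells. The part of these gaps in any difference below was not tested.

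Of the 9 members, 2 were at least 2-fold above growth medium at day 0, where 2.91% of the 13242 genes kept were, and 2 were at least 2-fold lower, where 0.317% were. The higher pair was Acta1 and Actc1, and the lower pair Tagln and Cnn1. Between day 0 and day 2, 1 of 9 was at least 2-fold higher (Acta1), against 2.67% of all genes kept, and 0 were at least 2-fold lower, against 2.96%. Between day 0 and day 4, 3 of 9 were at least 2-fold higher (Acta1, Actc1 and Tagln), against 3.83%, and 0 lower, against 5.66%. From day 2 to day 4 no member differed by 2-fold in either direction, and 0.808% of all genes did in each direction. No member was at least 2-fold higher or lower in shRp58 cells than in control cells, where 0.0529% of all genes were higher and 0.619% lower.

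**Figure D1:**
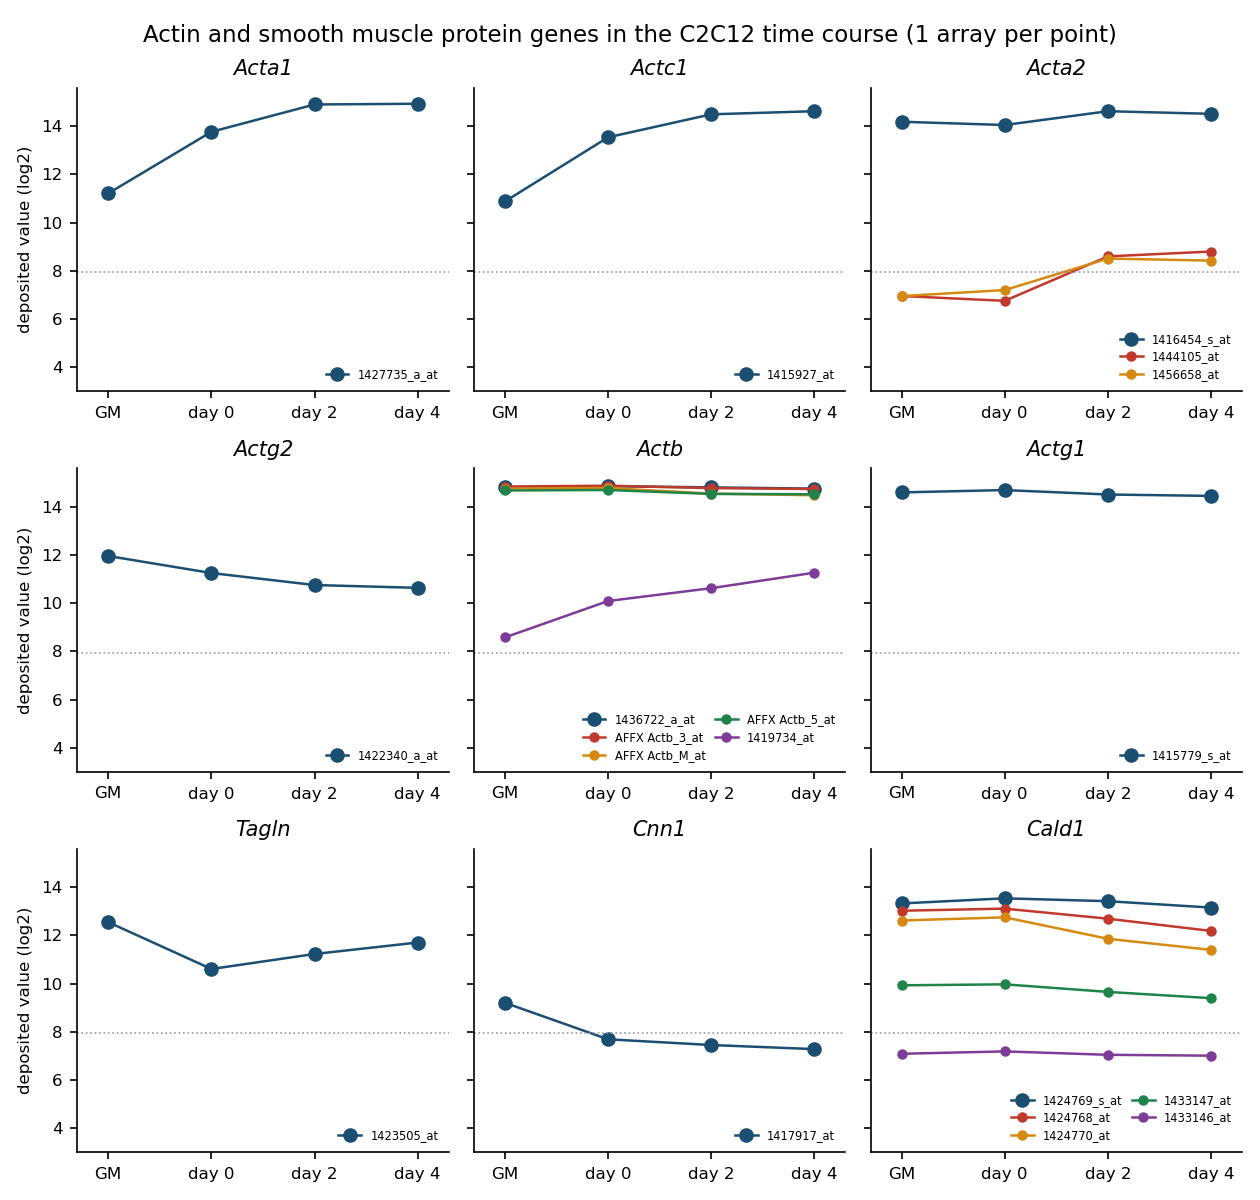
The deposited log2 intensity of each member's probe sets is drawn against the 4 time-course arrays in the order growth medium, day 0, day 2 and day 4, with 1 array per point, no error bar and a dotted line at 7.95. Acta1 and Actc1 stand 2.55 and 2.66 log2 units higher at day 0 than in growth medium, Tagln dips at day 0, and most Actb and Actg1 probe sets stay near the top of the scale.

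The sarcomeric actins spanned the widest range of the members over the time course. Acta1, the main actin of adult skeletal muscle, read 11.21 in growth medium and 13.76, 14.90 and 14.93 at days 0, 2 and 4. Day 0 stood 5.87-fold above growth medium (difference 2.55), and 99.8% of genes kept had a smaller difference. Day 2 was a further 2.19-fold above day 0, and day 4 was 2.24-fold above day 0.

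At days 2 and 4 the Acta1 probe set was among the brightest on the array. Only 4 of the 45101 probe sets were brighter at day 2 and 3 at day 4, and Acta1 lay 0.16 and 0.17 below the highest value of those arrays. The difference of 0.03 between these days was read near that highest value, and whether the scale limited it was not tested.

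Actc1, the actin of the heart and of embryonic skeletal muscle, followed the same path. Its values were 10.88 in growth medium and 13.53, 14.49 and 14.62 at days 0, 2 and 4. Actc1 at day 0 was 6.32-fold above growth medium, and it was 1.94-fold higher at day 2 than at day 0 and 2.12-fold higher at day 4 than at day 0. The Acta1 difference minus the Actc1 difference was -0.11 from growth medium to day 0, 0.18 from day 0 to day 2 and 0.08 from day 0 to day 4. By comparison, the 2 brightest probe sets of a single gene differed by a median of 0.19, 0.18 and 0.20 in these comparisons, over 5823 genes with at least 2. The skeletal and cardiac isoforms thus climbed together by these values, to within the usual gap between probe sets of 1 gene. Each was read by 1 probe set, so a shared course and cross-hybridisation between the 2 cannot be told apart. At days 2 and 4 Actc1 lay 0.57 and 0.48 below the highest value of those arrays.

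The smooth muscle actins took separate courses. Acta2, the actin of vascular smooth muscle and of myofibroblasts, was read by 3 probe sets that did not match each other in size. The brightest, whose suffix marks probes shared between transcripts, read 14.18 in growth medium and 14.04, 14.62 and 14.51 at days 0, 2 and 4. The other two read 6.96 and 6.95 in growth medium, 6.75 and 7.20 at day 0, 8.60 and 8.51 at day 2, and 8.80 and 8.42 at day 4.

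All 3 Acta2 probe sets were higher at days 2 and 4 than at day 0. The bright one differed by 0.57 at day 2 and 0.46 at day 4, close to the top of the scale. The dimmer ones were 3.59-fold and 2.47-fold higher at day 2, and 4.13-fold and 2.33-fold higher at day 4, from day 0 values below 7.95. Whether the Acta2 transcript passed 2-fold therefore depended on the probe set. The part of cross-hybridising Acta1 or Actc1 signal in these values was not tested. Between growth medium and day 0, where Acta1 and Actc1 climbed most, the 3 differences were -0.14, -0.20 and 0.25, with no shared sign.

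Actg2, the actin of the gut wall, ran the other way. Its probe set read 11.95 in growth medium and 11.25, 10.75 and 10.63 at days 0, 2 and 4. It was 1.63-fold lower at day 0 than in growth medium and 1.53-fold lower at day 4 than at day 0, never reaching 2-fold within a comparison. The order of its 4 arrays was the reverse of the order for Acta1 and Actc1. The Acta2 difference minus the Actg2 difference was 0.57 from growth medium to day 0 and 1.08 from day 0 to day 4, by the brightest Acta2 probe set.

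The cytoplasmic actins, which build the cortex and stress fibres of all cells, were nearly flat by their bright probe sets. Actb read 14.80, 14.85, 14.80 and 14.74 in growth medium and at days 0, 2 and 4. Actg1 read 14.59, 14.69, 14.50 and 14.44 on the same arrays, a difference of -0.24 between day 0 and day 4. The only Actg1 probe set carries the suffix that marks probes shared between transcripts. On the time-course arrays the Actb probe set lay 0.07 to 0.35 below the highest value and that of Actg1 0.23 to 0.65 below it. Whether the scale limited these readings was not tested. The signs of these small differences were not stable, since from growth medium to day 0 Actb (0.04) turned negative after quantile normalization or cyclic loess and Actg1 (0.10) after cyclic loess.

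One of the other Actb probe sets went against the rest. The 3 hybridisation controls for the 3′ end, middle and 5′ end of Actb read 14.83, 14.75 and 14.67 in growth medium, and 14.73, 14.47 and 14.51 at day 4. A further, much dimmer Actb probe set read 8.58 in growth medium and 10.09, 10.62 and 11.26 at days 0, 2 and 4. Day 0 was 2.85-fold above growth medium, and it was 2.26-fold higher at day 4 than at day 0, against the flat course of the other four. From day 2 to day 4 it differed by 0.64, beside 0.03 for Acta1 and 0.13 for Actc1. Which transcript it reads was not analysed here, and the part of another actin's signal in it was not tested.

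The smooth muscle filament-binding proteins split into a gene that dipped and partly recovered and a gene that sank below 7.95. The remaining gene, Cald1, was lower at day 4 than at day 0 by amounts that depended on the probe set. Tagln read 12.55 in growth medium and 10.60, 11.23 and 11.70 at days 0, 2 and 4. It was 3.85-fold lower at day 0 than in growth medium, and 0.0151% of genes kept had a more negative difference. Day 4 was 2.14-fold above day 0, still below the value in growth medium. Of the 5 fibroblast markers kept, 3 were at least 2-fold higher at day 4 than at day 0 and none lower. The shares over all genes kept were 3.83% and 5.66%. The higher markers were Dcn (3.04), Lum (2.41, from a day 0 value below 7.95) and Col1a1 (1.01). The median of the 5 was 1.01, beside -0.04 for all genes kept. Dcn differed by only 0.22 at another of its probe sets, and Pdgfra and Col1a2 by -0.12 and -0.31. The part of these markers in the day 4 values of Tagln, Acta2, Acta1 and Actc1 was not tested.

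Cnn1 stood at 9.20 in growth medium and 7.69, 7.45 and 7.28 at days 0, 2 and 4. It passed the filter only through growth medium and lay below 7.95 on the other arrays. Its difference at day 0, -1.51, which counts it among the 2 lower members, therefore rests on a dim value, as do the later differences from day 0, -0.24 at day 2 and -0.41 at day 4. Tagln and Cnn1 were therefore both lower at day 0 but only Tagln stood higher again at day 4, the Tagln difference exceeding that of Cnn1 by 1.51 from day 0 to day 4.

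Cald1, which has long smooth muscle and short general isoforms, was read by 5 probe sets. The brightest read 13.32 in growth medium and 13.53, 13.42 and 13.15 at days 0, 2 and 4. The next 2 were 13.02, 13.11, 12.69 and 12.18 for the first and 12.61, 12.75, 11.86 and 11.40 for the second, in the same order of arrays. From day 0 to day 4 these probe sets differed by -0.38, -0.93 and -1.35, the last a 2.55-fold lower value. Another read 9.93, 9.97, 9.65 and 9.39, and the dimmest, at 7.01 to 7.19, was below 7.95 on every array. All 5 were thus lower at day 4 than at day 0, by amounts that depended on the probe set, and their largest difference between growth medium and day 0 was 0.21.

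**Figure D2:**
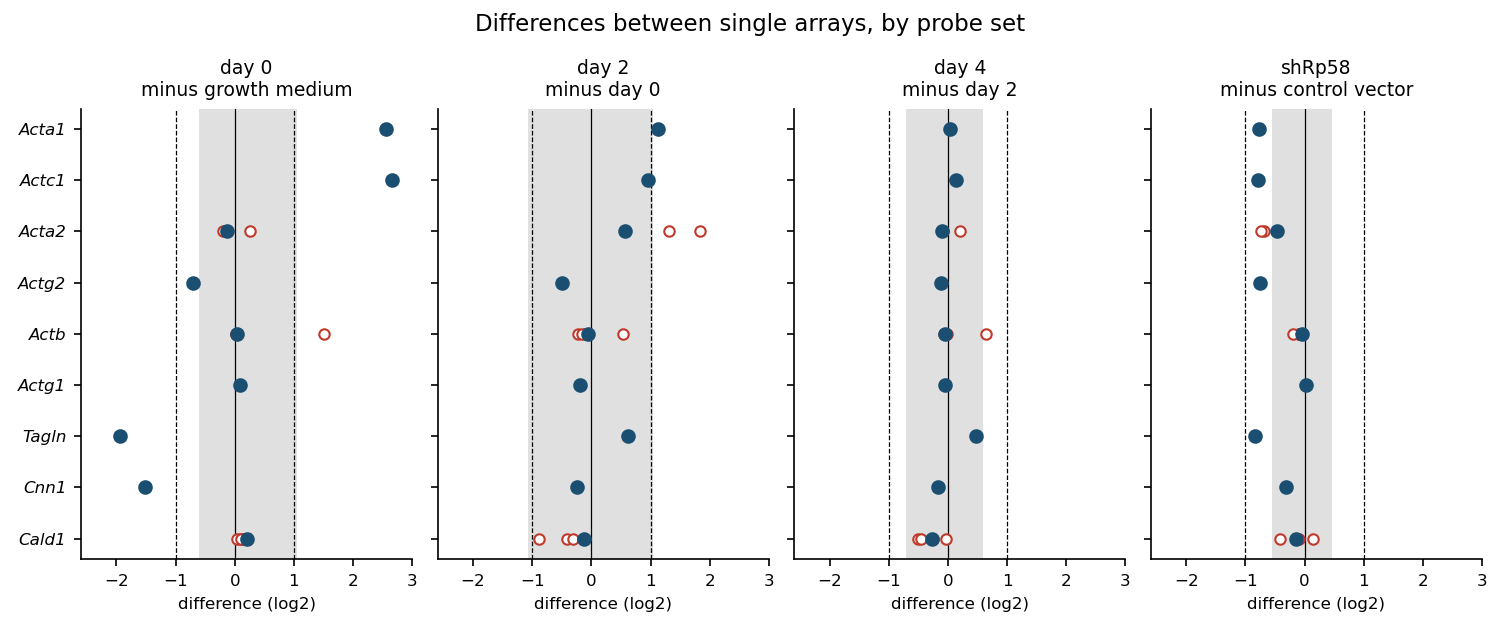
Each panel plots 1 of 4 comparisons, with the log2 difference between 2 single arrays on the x axis and the members down the page. Filled points are the brightest probe set of a gene and open points its others, dashed lines stand at 2-fold, and grey marks the central 95% of all genes kept. Acta1 and Actc1 lie right of the upper line and Tagln and Cnn1 left of the lower line for day 0 against growth medium, and no probe set passes a line in shRp58 against control cells.

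In the stable lines, both at day 0, Acta1, Actc1, Actg2 and Tagln were lower in shRp58 cells than in control cells by similar amounts, with differences of -0.84 to -0.75, all under 2-fold. Acta1 read 13.37 in shRp58 cells and 14.14 in control cells, a 1.70-fold lower value (difference -0.76). Actc1 read 12.74 in shRp58 cells and 13.52 in control cells, 1.72-fold lower. Actg2 read 9.16 in shRp58 cells and 9.90 in control cells, 1.68-fold lower.

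Tagln had the most negative difference of the 9 genes, with 8.80 in shRp58 cells and 9.64 in control cells, 1.79-fold lower. Among all genes kept, 1.25% had a more negative difference than Acta1, 1.21% than Actc1, 1.34% than Actg2 and 0.989% than Tagln. The central 95% of all genes kept lay between -0.55 and 0.46, so these 4 lay outside it, while none reached 2-fold.

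The bright Acta2 probe set read 13.47 in shRp58 cells and 13.93 in control cells, a difference of -0.46 that lay inside that range. The dimmer Acta2 probe sets differed by -0.68 and -0.74, among values below 7.95 in both lines. All 3 were lower in shRp58 cells. Cnn1 read 6.09 in shRp58 cells and 6.40 in control cells, both below 7.95.

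The cytoplasmic actins differed by little. Actb read 14.46 in shRp58 cells and 14.50 in control cells, and Actg1 read 14.20 in shRp58 cells and 14.18 in control cells. In shRp58 and control cells Actb lay 0.07 and 0.04 below the highest value of the array, and Actg1 0.32 and 0.36 below it. A limit from the scale was not tested here either. The dim Actb probe set differed by -0.20, with 10.09 in shRp58 cells and 10.30 in control cells. Cald1 differed by -0.15 at its brightest probe set, with 12.55 in shRp58 cells and 12.69 in control cells, and by -0.41 at the next.

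Zbtb18, the gene the hairpin targets, read 11.16 in shRp58 cells and 11.69 in control cells, a difference of -0.53 by its 1 probe set. That difference lay inside the central 95% of all genes kept, -0.55 to 0.46. In the time course it read 11.18 in growth medium and 11.88, 12.86 and 13.06 at days 0, 2 and 4. Of the 6 myoblast and myocyte markers, none lay above 0 in shRp58 against control cells, with a median of -0.20 and Myog, a myogenic regulator, at -0.72. The 5 fibroblast markers kept had a median of -0.12, with Dcn at -0.95 (up to 0.13 at another of its probe sets), Col1a1 at -0.92, Pdgfra at -0.12, Col1a2 at -0.09 and Lum at 0.19. Pdgfra, whose value is that median, and Lum were below 7.95 on both stable-line arrays. The part of either marker list in the actin differences was not tested.

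**Figure D3:**
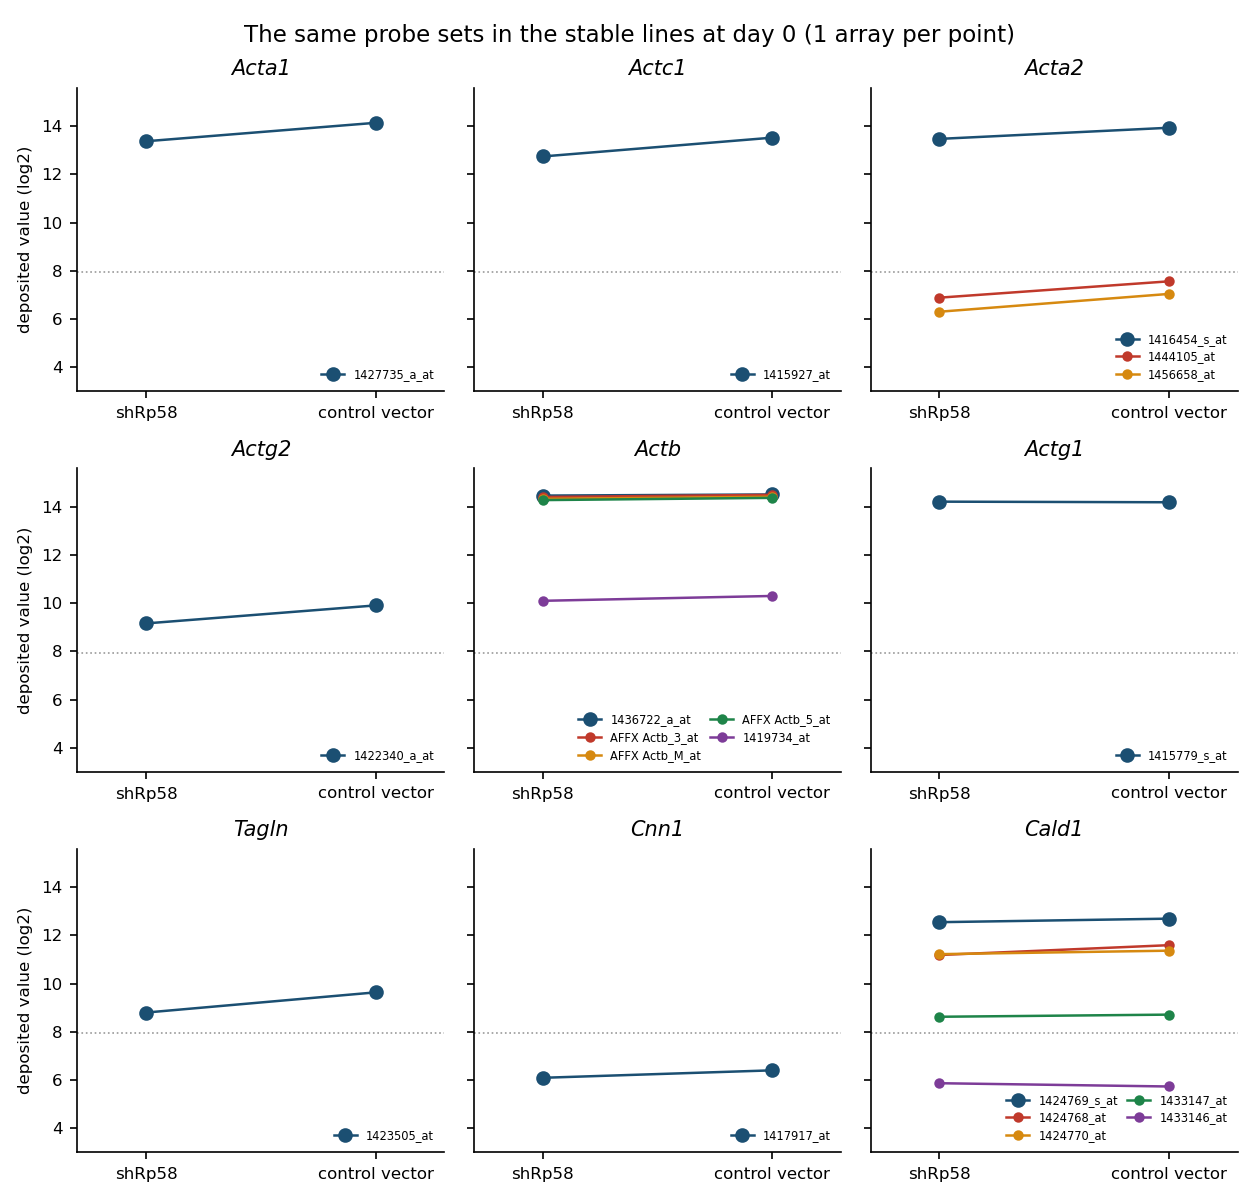
The log2 intensity of every member probe set is drawn for the shRp58 array (left) and the control vector array (right), 1 array per point and no error bar, with the brightest probe set in large points and a dotted line at 7.95. The shRp58 value lies under the control value for Acta1, Actc1, Acta2, Actg2, Tagln and, among dim values, Cnn1, while the brightest probe sets of Actb, Actg1 and Cald1 are nearly level.

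From day 0 to day 4, 5 of the 9 members had a sign opposite to that of the hairpin difference (Acta1, Actc1, Acta2, Tagln and Actg1, the last with a hairpin difference of 0.03). This share is near the 59.9% of all genes kept and is no result about the members. Actg2 was lower at day 4 than at day 0 and lower in shRp58 cells too. From growth medium to day 0, Tagln was 3.85-fold lower while Acta1 and Actc1 were higher, yet all 3 were lower in shRp58 cells by differences of -0.84, -0.76 and -0.78. These comparisons use different arrays and share no control.

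For each member whose time course spanned at least 1 log2 unit, the 5 genes with the nearest time course were taken by root mean square distance over the 4 arrays, each gene centred on its own mean. The hairpin difference of those genes was not used in choosing them. The nearest to Acta1 were Selenop (selenoprotein P) and Actc1, both at a distance of 0.06, then Myl1 (a fast myosin light chain) at 0.11, Myog at 0.15 and Mamdc2 at 0.18. Their hairpin differences were -0.70, -0.78, -0.63, -0.72 and -0.45, beside -0.76 for Acta1. Those nearest to Actc1 had a median of -0.72, beside -0.78 for Actc1 itself.

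The neighbours of Actg2, Tagln and Cnn1 had medians on the other side of 0 from their member. The genes nearest to Actg2 were Tyms (thymidylate synthase) at a distance of 0.03, Tcof1, Wdr4, Rbmx2 and the replication factor Mcm10. Their median hairpin difference was 0.25, with Tcof1 at -0.12, Wdr4 at 0.24 and Mcm10 at 0.54, beside -0.75 for Actg2. Tyms, at 0.59, read 7.13 in shRp58 cells and 6.54 in control cells, both below 7.95. For Tagln the nearest 5, at distances of 0.22 to 0.29, were Cyp2c54, Dnm3, Slfn1, Nrip2 and the matricellular SRF target Ccn2. Their hairpin differences ran from -0.19 (Ccn2) to 0.44 (Slfn1), with a median of 0.25, beside -0.84 for Tagln. For Cnn1 they were Krt14 (a keratin), Ifrd1, Gdnf (a neurotrophic factor), Siglecg and Srm (spermidine synthase), with a median of 0.30, beside -0.31 for Cnn1. Dnm3, Slfn1, Krt14, Gdnf and Cnn1 were below 7.95 on both stable-line arrays, so their differences were read among dim values.

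**Figure D4:**
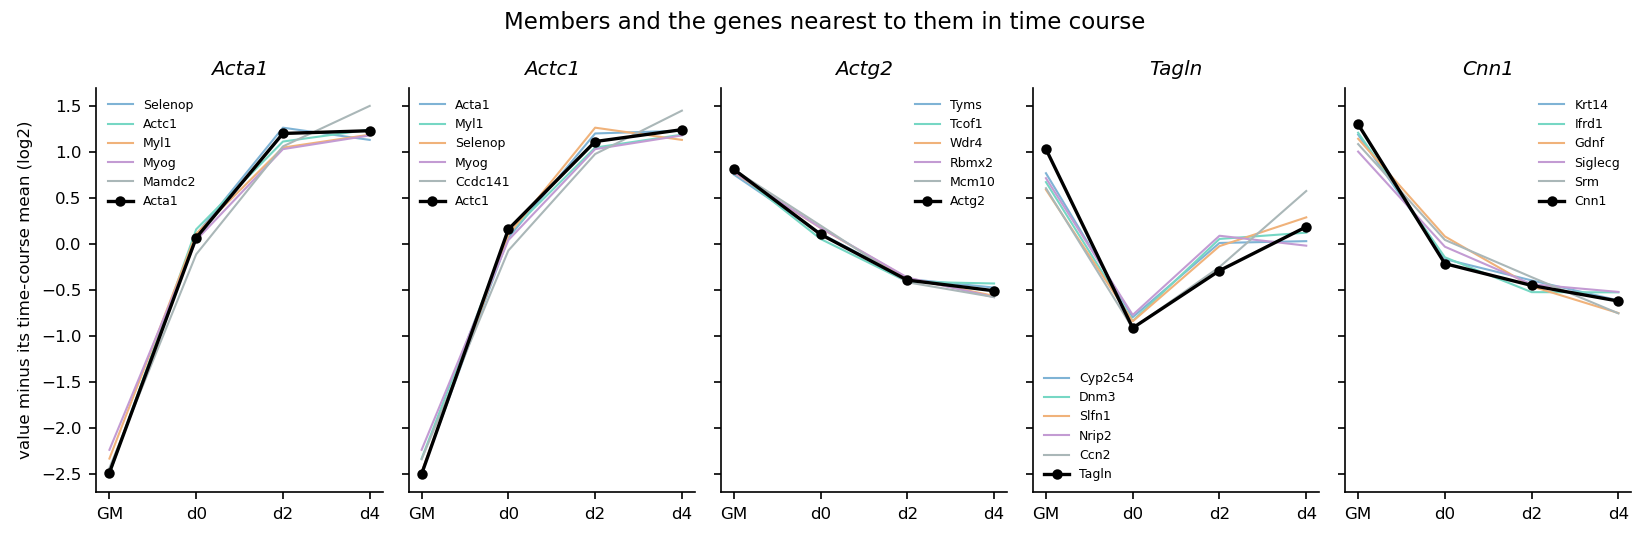
Each panel plots a member (black) and the 5 genes nearest to it (coloured) over growth medium (GM) and days 0, 2 and 4, as log2 value minus the gene's own mean over the 4 arrays. The curves nearly overlie each other for Acta1, Actc1 and Actg2 and spread most for Tagln, whose neighbours lay at distances of 0.22 to 0.29.

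The partners of actin were read from lists chosen by textbook role. The list for the turnover of monomers and filaments had 19 genes kept. At day 4, 4 were at least 2-fold higher than at day 0 and 2 lower, against 3.83% and 5.66% of all genes kept. Their median was -0.25, beside -0.04 for all genes kept. The higher ones were Lmod2 (4.06) and Lmod3 (3.67), leiomodins that nucleate thin filaments, Cap2 (3.66), a cyclase-associated actin regulator of striated muscle, and Tmod1 (2.03), which caps pointed ends. In shRp58 cells 2 of the 19 were at least 2-fold lower than in control cells, against 0.619% of all genes kept. These were Lmod2 (-1.77) and Lmod3 (-1.55), and Cap2, below 7.95 in shRp58 cells, and Tmod1 differed by -0.86 and -0.75. From day 0 to day 4 all 4 of these differences exceeded those of Acta1 (1.16) and Actc1 (1.08), which were read near the top of the scale. In shRp58 cells those of Lmod2, Lmod3 and Cap2 were larger in size than those of Acta1 (-0.76) and Actc1 (-0.78), while that of Tmod1 was not.

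Crosslinkers and adhesion proteins gave 7 of 20 at least 2-fold higher and 5 lower at day 4 than at day 0, with a median of 0.09. The shares over all genes kept were 3.83% and 5.66%. Ablim3 (an actin-binding LIM protein) differed by 4.37 from a day 0 value below 7.95, Actn2 (sarcomeric alpha-actinin) by 3.34, Neb (nebulin, the thin-filament ruler) by 2.78 and Enah (a filament elongator) by 1.85, the last by 0.50 to 1.87 over its 6 probe sets. The non-muscle alpha-actinins Actn1 and Actn4, named after their values were seen, differed by -0.38 and -0.43. In shRp58 cells 3 of the 20 were at least 2-fold lower and none higher, against 0.619% and 0.0529% of all genes kept. The 3 were Ablim3 (-1.89), Neb (-1.55) and Enah (-1.13), and Actn2 differed by -0.81. In shRp58 cells Ablim3 read 6.42 and Actn2 7.57, both below 7.95. The Enah count rests on its brightest probe set, since its 6 ran from -1.13 to -0.27.

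Of 15 nucleators of new filaments, 1 was at least 2-fold higher at day 4 than at day 0 and 2 lower. Of all genes kept, 3.83% were higher and 5.66% lower. The median of the nucleators was -0.41, beside -0.04 for all genes kept. Diaph3, a formin of dividing cells, differed by -2.59 and Arpc5, an Arp2/3 subunit, by -1.12 at its brighter probe set and -0.02 at the other. Cobl differed by 2.01 at one probe set and -0.77 at its other. No nucleator passed 2-fold between shRp58 and control cells, and Cobl had the largest difference there (-0.88).

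**Figure D5:**
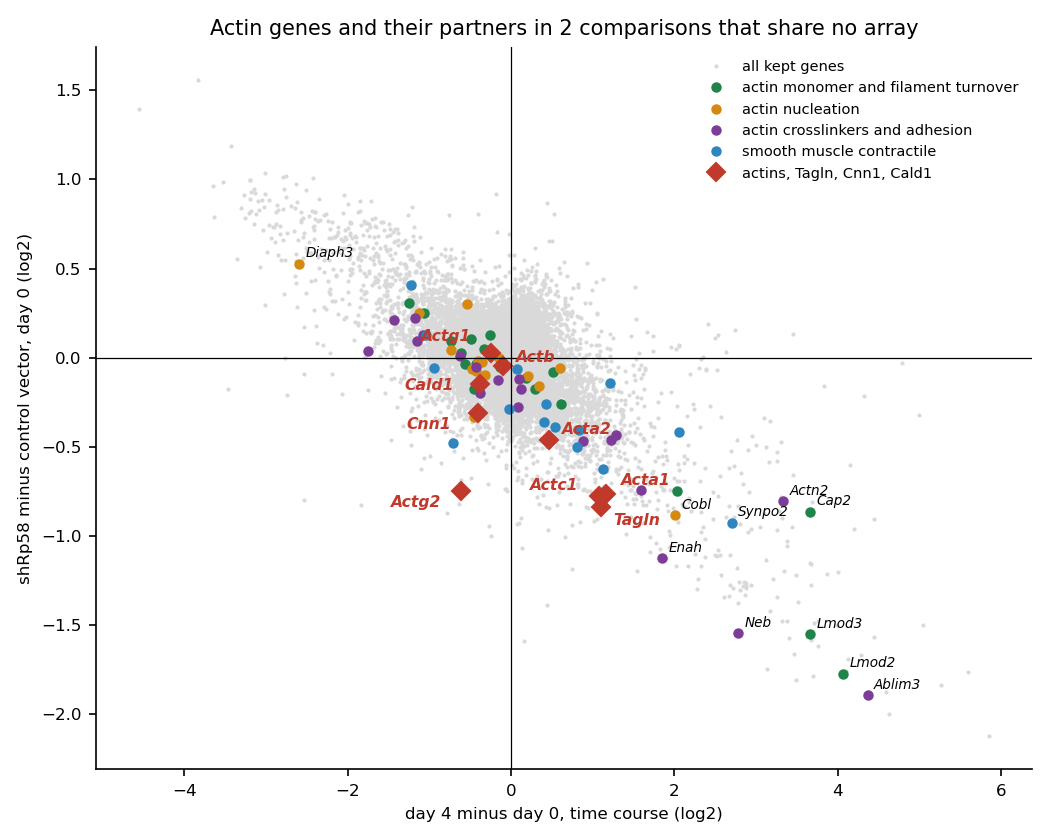
Coloured points are actin partners, red diamonds the members and grey points all genes kept: each gene's difference between day 4 and day 0 (x axis) is plotted against its difference between shRp58 and control cells (y axis), both in log2 units. Lmod2, Lmod3, Ablim3 and Neb lie at the lower right, with Neb, the nearest of them to the centre, at 2.78 and -1.55.

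Other smooth muscle genes gave a mixed picture. Of 15 contractile genes kept, 4 were at least 2-fold higher and 2 lower at day 4 than at day 0, with a median of 0.43. For all genes kept the shares were 3.83% and 5.66% and the median -0.04. Synpo2 (synaptopodin 2), also a Z-disc protein of striated muscle, differed by 2.70 at its brightest probe set and by as little as 0.12 at another. Mylk (myosin light chain kinase) differed by 2.06 and 0.48 at the ends of its 3 probe sets, the former from a day 0 value below 7.95. Csrp2, a LIM protein of smooth muscle, differed by -1.23. In shRp58 cells 2 of the 15 lay above 0 and 13 at or below it. The median of the 15 was -0.36, beside -0.01 for all genes kept, and 0 passed 2-fold by the brightest probe set. Tpm1 differed by -0.50 at that probe set and by -1.69 at another of its 4. Myh11, Kcnmb1 and Itga8, also on this list, did not pass the filter. The relatives of the members differed from them: from day 0 to day 4, Tagln2 differed by -1.31 at its brightest of 3 probe sets and by 0.0015 at another, Cnn2 by -0.76 and Cnn3 by 0.40.

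Srf itself differed by less than 2-fold in every comparison. It read 11.35 in growth medium and 11.35, 11.08 and 11.02 at days 0, 2 and 4, and 10.01 in shRp58 cells against 10.28 in control cells. Mrtfa, the cofactor held by monomeric actin, read 11.78, 11.69, 11.18 and 10.96 over the time course, and 10.31 in shRp58 cells against 10.27 in control cells. Of the 10 genes for SRF and its cofactors, 1 was at least 2-fold higher at day 4 than at day 0 and 1 lower. The shares over all genes kept were 3.83% and 5.66%. The higher gene was Abra (2.67), a striated muscle activator of this pathway, from a day 0 value below 7.95. The lower gene was Elk3 (-1.48), a cofactor of the ETS family.

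Of 15 SRF and MRTF target genes, 1 was at least 2-fold higher at day 4 than at day 0 and 2 lower, with a median of -0.18. For all genes kept the shares were 3.83% and 5.66% and the median -0.04. Ccn2 differed by -1.52 from growth medium to day 0 and by 1.49 from day 0 to day 4, a dip and recovery that Tagln also showed (-1.94 and 1.10). Flna (filamin A) differed by -1.16 and Tgfb1i1 by -1.01 from day 0 to day 4. None of the 15 passed 2-fold in shRp58 against control cells, where the median was -0.13.

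The genes used most often as references give a scale for the flat members. Of 9 reference genes kept, none passed 2-fold by its brightest probe set in any of the 5 comparisons. The largest such difference from day 0 to day 4 was -0.69, for Tubb5, which reached -1.19 at another probe set. Actb at -0.10 and Actg1 at -0.24 by their brightest probe sets were smaller in size than either value. The median of the 9 reference genes was -0.13, which Actg1 exceeded in size and Actb did not.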

How the data were processed

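RNA of each culture was hybridised to 1 Affymetrix mouse array, from 10 µg of cRNA. The deposited values are log2 intensities that the authors made with the RMA algorithm, per the series' design text; the software version is not given in the sources used here. Probe sets were named through the platform annotation, and those with 1 gene symbol were used. Each gene was represented by its brightest probe set on average over the 6 arrays. Differences were taken between log2 values of single arrays and counted from 2-fold up, and the count was tested on simulated data. Tools were Python 3.11.15, pandas 2.3.3, numpy 2.4.6, matplotlib 3.10.9 and, for alternatives, R 4.3.3 with limma 3.58.1. The named genes were every member, Srf, Mrtfa and Zbtb18, up to 4 genes per list with the largest difference in a comparison, and the 5 nearest time courses. The members and lists were chosen with earlier results of these data known. Alternatives were 3 scalings, 2 choices of probe set, 2 filters and a 1.5-fold rule.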

Additional observations from a re-analysis of the deposited data

How the results depend on the processing

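No paired analysis was possible because each group held 1 array and no replicate numbers were shared, and for the same reason no array could be left out. Of 45 member differences (9 genes, 5 comparisons), 5 had the opposite sign in at least 1 of the 5 alternatives in scaling and choice of probe set (4 for Actg1), none of them at least 2-fold: Acta2 and Actb from growth medium to day 0, Actg1 there too, Acta2 from day 2 to day 4 and Actb from day 0 to day 2. From day 0 to day 2, where 1 member was at least 2-fold higher, 2 were after cyclic loess (Acta1 and Actc1), 2 with the median over probe sets, 2 of 8 with probe sets without an x or s suffix (both Acta1 and Acta2), and 3 at 1.5-fold. From day 0 to day 4, 4 were higher in place of 3 (Acta2 added) with the median over probe sets and with probe sets without an x or s suffix, and 1 was lower in place of 0 with the median over probe sets (Cald1) and 1 at 1.5-fold (Actg2). In shRp58 against control cells, 4 were lower in place of 0 at 1.5-fold (Acta1, Actc1, Actg2 and Tagln). A lower size rule admits more genes by its construction; the cause of the other shifts was not tested. From growth medium to day 0, 90.2% of all genes past 2-fold were higher, and 79.5% after quantile normalization, which moved the median of all genes from 0.10 to -0.03.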
